A study of Ovis aries with 18 samples.

Results

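ENSOARG00020015986 was the most abundant soleus transcript in the sheep skeletal muscle series: of the 20477 genes in the deposited table, it was the 1 selected on the highest mean FPKM over the soleus libraries. Total RNA depleted of ribosomal RNA was sequenced from 3 muscles of lambs, the soleus (SOL, a postural muscle of the lower hind leg), the longissimus lumborum (LL, the long muscle of the loin) and the psoas major (PM, the tenderloin muscle), with 6 libraries of each and 18 in all. The labels give no treatment, genotype, breed, sex or age that differs between libraries, and all samples came from the left side of the carcass. Titles number the libraries 1 to 6 in each muscle without stating that a number is an animal, so p-values reflect how far these libraries scatter, which may be partly technical. The gene is given by its Ensembl identifier because the table pairs no identifier with a name, position or sequence, and whether it codes for a protein is therefore not stated here. Its length, recovered from the steps of the values, was 685 bp.

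Skeletal muscle is built from slow fibres, which contract slowly and resist fatigue, and from fast fibres. Each kind makes its own versions of the contractile proteins from separate genes, and messages for contractile and energy-handling proteins make up much of a muscle's RNA. The soleus is known as a muscle rich in slow fibres, and the muscles of the loin as richer in fast ones. Marker genes of fibre types and of other cell types could not be located without names, so the labelled muscles were not checked against markers. In bulk tissue, fewer cells of a type and less RNA per cell cannot be told apart.

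Library totals lay between 10216739 and 14747118 reads, and the chosen transcript received between 2818 and 519314 of them. Its own counting error was thus small beside the differences described for it. LL 3 stood apart in the table as a whole. It lay at -131.7 on the second principal component of log2 levels, where the other libraries lay between -28.4 and 33.6. SOL 3 did not stand apart on this component, at -21.4, but differed in a set of genes chosen by muscle. In SOL 3, 18 abundant genes at least 4 times as high in LL as in SOL took 1.25% of the summed level. The other soleus libraries gave them 0.748% to 0.891%.

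Levels are in FPKM, reads scaled to gene length and to library total, as deposited by the authors. In soleus the transcript stood at 31326, 43542, 30773, 31802, 51408 and 36945 FPKM in SOL 1 to SOL 6. It was the highest of all genes in each of the 6 soleus libraries. Its soleus mean was 37633 ± 8319 FPKM (SD, n = 6), and the row next in the same order, ENSOARG00020019932, had a mean of 22631 FPKM. This order chose the transcript and is a description without a test.

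In psoas major the level was 8425, 9604, 7824, 7646, 2113 and 9812 FPKM in PM 1 to PM 6, with a mean of 7571 ± 2819 (SD, n = 6). PM 5 stood far below the other psoas libraries. In longissimus lumborum it was 1693, 6119, 2816, 1720, 337 and 1083 FPKM in LL 1 to LL 6, with a mean of 2295 ± 2044 (SD, n = 6). LL 2 was the highest and LL 5 the lowest of this muscle. The order of the means was thus SOL, PM and LL, with the soleus mean 4.97 times that of PM and 16.4 times that of LL. Every soleus library lay above every library of the other muscles, while PM and LL overlapped, since PM 5 lay below LL 2 and LL 3. Of the 15434 genes tested, 7.25% lay higher in every SOL library than in any LL library, and 6.75% did so for SOL and PM; as soleus levels chose the transcript, nothing is read from these shares.

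**Figure D1:**
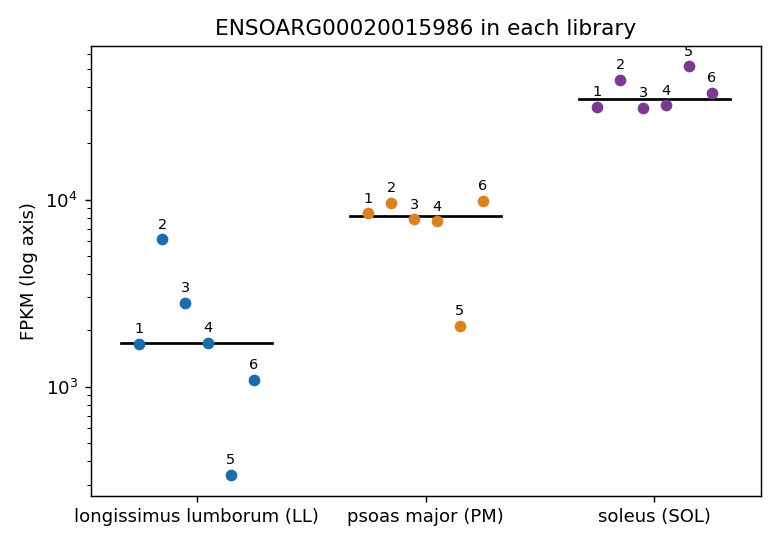
FPKM of ENSOARG00020015986 (log axis) in the 6 libraries of each muscle; each point is a library with its replicate number and each bar is the median of a muscle. Soleus libraries lie between 30773 and 51408 FPKM, above all others, and LL 5 at 337 and PM 5 at 2113 FPKM are the lowest of their muscles.

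The share of each library that this 1 transcript took followed the same order. It made up 5.79%, 7.68%, 5.73%, 5.74%, 8.33% and 6.68% of the summed FPKM in SOL 1 to SOL 6, a mean of 6.66% ± 1.12 (SD, n = 6). In PM it took 1.64%, 1.80%, 1.51%, 1.43%, 0.413% and 1.82% in the order of the numbers, a mean of 1.44% ± 0.523 (SD, n = 6). In LL it took 0.325%, 1.09%, 0.518%, 0.318%, 0.0613% and 0.203%, a mean of 0.418% ± 0.360 (SD, n = 6). No soleus library gave it less than 5.73%, and outside soleus it took at most 1.82%. Counted in reads instead, where a short gene weighs less, the means over 6 libraries were 2.58% ± 0.570 of all reads for SOL, 0.519% ± 0.193 for PM and 0.157% ± 0.140 for LL (± SD).

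Its place among all genes varied between the muscles outside soleus. In PM it ranked between the 4th and the 20th most abundant gene, and in LL between the 10th and the 175th. The lowest rank in each of these muscles was that of library 5. ENSOARG00020019932, the row just behind it in soleus, was abundant in all muscles, with 26862 ± 4986 FPKM for LL, 23939 ± 4708 for PM and 22631 ± 2970 for SOL (means of 6 libraries ± SD). Against this row the chosen transcript stood at a ratio of 1.20 to 2.11 in SOL libraries, 0.0820 to 0.528 in PM libraries and 0.0125 to 0.184 in LL libraries. These ranges did not overlap between SOL and the other muscles.

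The contrast of PM with LL uses no soleus level and could be tested, although the limma fit over all muscles takes its error from the soleus libraries as well. The transcript was higher in PM, with a ratio of means of 3.30, and 5 of 6 PM libraries lay above every LL library. For 0.719% of the genes tested all 6 did, which the transcript did not meet. The share of genes with at least 5 was not counted. The difference in FPKM, 5276, had an exact two-sided permutation p of 0.0065 (n = 6 each). The difference in share of summed FPKM, 1.02 percentage points, had the same exact permutation p of 0.0065, which remained 0.0065 after adjustment over these 2 measures. In the limma fit across all 15434 genes, the log2 difference between PM and LL was 2.07 (SE 0.53) with a Benjamini-Hochberg adjusted p of 0.052, just outside the threshold of 0.05. Fitted on the 12 LL and PM libraries only, the same difference had a limma adjusted p of 0.17. For comparison, 0.933% of genes were called higher in PM and 1.48% were called in either direction.

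That limma result turned on a few choices. Its adjusted p was 0.010 without LL 2, the highest LL library, and 0.019 without PM 5, the lowest PM library, with log2 differences of 2.45 and 2.41. It was 0.046 with a pseudocount of 1 and 0.034 among genes averaging 1 FPKM or more. Without LL 3, which stood apart in the table, it was 0.056 with a log2 difference of 2.23. With the replicate number as a block it was 0.019. The log2 difference was lowest without LL 5, at 1.62 (limma adjusted p = 0.11).

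The transcript varied far more within LL and within PM than most genes of high level. The SD of its log2 level was 1.40 in LL, where the 662 genes averaging 100 FPKM or more had a median SD of 0.29 and only 3 of them had a larger one. In PM its SD was 0.84 against a median of 0.23 over 632 genes, of which 13 had a larger one. In soleus the SD was 0.30 against a median of 0.25 over 656 genes, and 209 genes had a larger one. The highest library exceeded the lowest 18.2 times in LL, 4.64 times in PM and 1.67 times in SOL. The spread was thus widest where the mean was lowest. No test was made of these SDs.

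By replicate number, the libraries numbered 5 were the lowest of LL and PM and the highest of soleus. Number 5 had the lowest level in LL, 337 FPKM, and in PM, 2113 FPKM, but the highest in soleus, 51408 FPKM. Number 2 had the highest level in LL and the next to highest in PM and in SOL. PM exceeded LL in 6 of 6 numbers, by 1.57 times for number 2 and up to 9.06 times for number 6. SOL exceeded PM between 3.72 and 4.53 times for all numbers but 5, where the ratio was 24.3. The libraries numbered 5 held 12207831 (LL), 12421853 (PM) and 14747118 reads (SOL), the last being the deepest of all, and SOL 5 had the fewest genes detected of the soleus libraries, 14181 against 14959 or more. The part of depth or of detection in these levels was not tested.

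**Figure D2:**
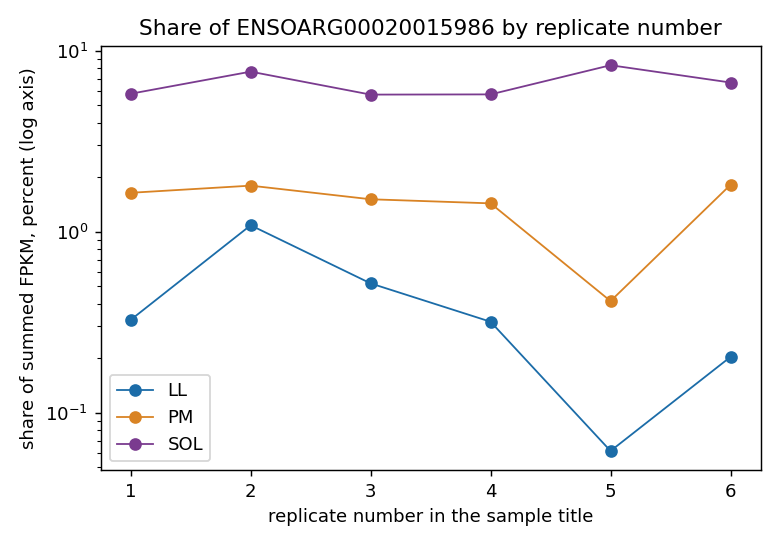
Share of ENSOARG00020015986 in the summed FPKM of each library (percent, log axis) against the replicate number in the sample title, 1 line per muscle. At number 5 the LL share falls to 0.0613% and the PM share to 0.413%, while the SOL share reaches its highest value of 8.33%.

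Over the 6 numbers the log2 levels in LL and PM had a Pearson r of 0.79 (exact permutation p = 0.15) and a Spearman rho of 0.26 (exact permutation p = 0.66). The Pearson r rested on the extreme libraries: without numbers 2 and 5, the farthest from the LL median, it was -0.81. LL and SOL gave an r of -0.41 (exact permutation p = 0.43) and a rho of -0.37 (exact permutation p = 0.50), and r was -0.87 without numbers 2 and 5. PM and SOL gave an r of -0.67 (exact permutation p = 0.31) and a rho of -0.09 (exact permutation p = 0.92), and r was 0.91 without numbers 5 and 6. The r values with numbers left out rest on very few points and were not tested, so their size is not read. Adjusted over the 3 pairs of muscles, the permutation p was 0.43 for each Pearson r and 0.92 for each rho. A shared pattern over the numbers thus did not pass, apart from the common low value of number 5 in LL and PM, which is a description.

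Genes that follow the transcript inside a muscle were sought with a slope: the log2 change of a gene per log2 unit of the transcript, after the mean of each muscle was removed, over the 12 LL and PM libraries. In limma, 0 of 15433 genes had an adjusted p under 0.05. At an unadjusted p under 0.05 there were 1152 genes, or 7.46% of those tested, of which 520 (3.37%) had a slope above 0. The count at the adjusted threshold depended on the genes tested: with genes of at least 1 FPKM on average it was 8, of which 7 had a slope above 0, and with a pseudocount of 1 it was 2. It ranged from 0 to 4 as single libraries were left out, with 3 without LL 1, 2 without PM 5 and 4 without PM 6.

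Of genes with at least 10 FPKM in both muscles, those most alike were named by the weaker of their 2 Pearson correlations with the transcript, within LL and within PM (6 libraries each, given without a p because the order selects them). ENSOARG00020016264 had r = 0.95 in LL and 0.94 in PM, but a shallow slope of 0.17 (SE 0.04, limma adjusted p = 0.38). In PM libraries alone its slope was 0.056 (limma unadjusted p = 0.41), over a narrow range of 18.2 to 19.9 FPKM. At this level, counting error alone can span such a range, so its r in PM is not read. Its level hardly differed between muscles, with 20.5 ± 4.47 FPKM for LL, 19.5 ± 0.669 for PM and 18.9 ± 4.27 for SOL (means of 6 libraries ± SD). In soleus, which was not used to find it, its r was -0.44.

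ENSOARG00020001415 came next, with r = 0.91 in LL and 0.90 in PM and a slope of 0.52 (SE 0.08, limma adjusted p = 0.12). It stood at 50.03, 93.4, 66.8, 33.2, 20.4 and 21.3 FPKM in LL 1 to LL 6 and at 199, 160, 181, 174, 103 and 167 FPKM in PM 1 to PM 6. As for the chosen transcript, LL 2 was the highest of LL, and library 5 the lowest of both muscles. The r in PM rested on PM 5. Among the other PM libraries, the gene was lowest in PM 2 and PM 6, where the transcript was highest. This gene also rose from LL to PM (log2 difference 1.98, limma adjusted p = 0.00080) and had its highest mean in SOL, 468 ± 61.3 FPKM (SD, n = 6). Within soleus, however, its r with the transcript was -0.04. Its slope passed among genes of at least 1 FPKM on average (limma adjusted p = 0.035).

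In the opposite direction, ENSOARG00020023831 had r = -0.92 in LL and -0.87 in PM, with a slope of -0.26 (SE 0.05, limma adjusted p = 0.20), and r = 0.51 in SOL. ENSOARG00020009372 had r = -0.85 and -0.93, with a slope of -0.13 (SE 0.04, limma adjusted p = 0.52), and r = -0.24 in SOL. Its slope turned to 0.03 under a replicate block, and kept its direction but shrank to -0.05 without library 5 of both muscles. Both had like means in all muscles, 41.0 to 45.3 FPKM for the former and 21.8 to 22.1 FPKM for the latter. The r of both genes in PM leaned on PM 5, where the transcript was lowest. ENSOARG00020023831 stood at 62.7 FPKM in PM 5 and at 34.4 to 45.2 in the other PM libraries. For ENSOARG00020009372 the values were 28.5 and 19.0 to 22.4 FPKM. None of the 4 genes passed in the fit over all genes tested.

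**Figure D3:**
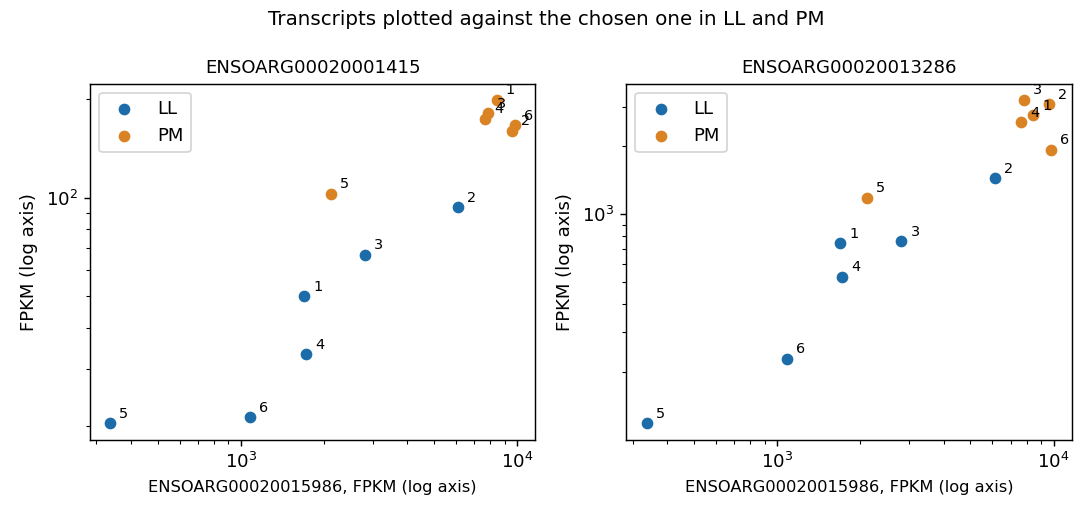
FPKM of ENSOARG00020001415 (left) and ENSOARG00020013286 (right) against FPKM of ENSOARG00020015986 in the 6 LL and 6 PM libraries, all axes logarithmic, points labelled by replicate number. Library 5 lies lowest of its muscle in both panels, and LL 2 lies highest of the LL libraries.

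Other abundant genes that were high in soleus mostly had slopes above 0 on the transcript inside LL and PM. The set, drawn up after the values were seen and described without a test, held the other 11 genes averaging 1000 FPKM or more in SOL and with a SOL mean at least 4 times that of LL. Of these, 9 had a slope above 0, where 44.9% of all genes tested did, and the median slope was 0.47 against -0.02 over all genes. The correlation with the transcript was above 0 in both LL and PM for the same number, 9 of 11, against 28.5% of the 5931 genes with at least 10 FPKM in both muscles. Median r was 0.91 in LL and 0.44 in PM, against -0.06 and 0.09. At an unadjusted p under 0.05, 7 of the 11 slopes passed, where 7.46% of all genes tested did, and 0 passed at the adjusted threshold. In PM libraries alone 3 of the 11 passed at an unadjusted p under 0.05, with a median slope of 0.24. In LL libraries alone 7 did, with a median of 0.50. Of all 15433 genes tested, 712 passed in PM libraries alone and 839 in LL libraries alone. Their median slopes were 0.02 and -0.02. Of the 8 genes called when genes of at least 1 FPKM were tested, 4 belonged to the set.

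These counts, which are of slopes common to LL and PM, held when library 5 was left out of both muscles. Then 10 of the 11 slopes were above 0, with a median of 0.64, where 48.8% of all genes tested had a slope above 0. Without LL 3 the count was 9, and it was 9 after median-ratio scaling, against 46.3% and 46.0% of all genes tested. Summed over the 11 genes, the set took 0.629%, 1.29%, 0.818%, 0.685%, 0.366% and 0.449% of the FPKM in LL 1 to LL 6, and this sum had an r of 0.96 with the transcript on the log2 scale. The same sum took 1.76%, 1.65%, 1.94%, 2.01%, 1.14% and 1.56% in PM 1 to PM 6, with r = 0.83. This r in PM rested on PM 5, as the other PM libraries ran the opposite way. From PM 4 through PM 3, PM 1 and PM 2 to PM 6 the transcript rose from 7646 to 9812 FPKM. Over the same libraries the sum fell at each step, from 2.01% to 1.56%. In SOL it took between 6.08% and 9.34%, highest in SOL 5, with r = 0.48. Library 5 was again the lowest of LL and of PM, and the highest of SOL. LL 5 was the lowest LL library for 7 of the 11 genes, where it was so for 8.63% of genes with at least 10 FPKM in both muscles, and PM 5 the lowest PM library for 6, against 16.4%.

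Within the set, ENSOARG00020013286 had the smallest p. It stood at 745, 1447, 763, 529, 119 and 229 FPKM in LL 1 to LL 6 and at 2745, 3079, 3221, 2558, 1184 and 1934 FPKM in PM 1 to PM 6. Its slope was 0.80 (SE 0.11, limma adjusted p = 0.058), with r = 0.96 in LL and 0.83 in PM, and r was -0.50 in SOL. The r in PM again rested on PM 5. Among the other PM libraries, this gene was lowest in PM 6, where the transcript was highest. ENSOARG00020004484 was the most abundant of the set in soleus, at 14014 ± 3891 FPKM (SD, n = 6). It had the steepest slope of the set, 0.98 (SE 0.37, limma adjusted p = 0.60), but its r was 0.91 in LL and only 0.04 in PM, where PM 2 held 33.9 FPKM and the other libraries 239 to 931. Slopes in the rest of the set ran from -0.16 upward, and 2 genes had r below 0 in both muscles. Both examples were singled out after their values were seen.

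The 18 abundant genes of the opposite kind, with at least 1000 FPKM in LL and an LL mean at least 4 times that of SOL, showed slopes near 0. They ran from -0.18 to 0.0034 with a median of -0.07, and 1 of 18 lay above 0, where 44.9% of all genes tested did. At an unadjusted p under 0.05, 0 of them passed in limma, and 0 at the adjusted threshold. Of all genes tested, 7.46% passed at the unadjusted threshold, so 0 of 18 is not read as a difference. The direction was not stable: with the replicate number as a block, 12 of 18 slopes lay above 0 with a median of 0.03. Under that block 46.1% of all genes tested lay above 0. The count among the 18 was 4 after median-ratio scaling, 6 without library 5 of both muscles, and 0 to 4 with 1 library left out. Over all genes tested the shares were 46.0%, 48.8% and 43.4% to 49.4%. In LL 5 and PM 5, 0 of the 18 had their lowest value of the muscle. Of genes with at least 10 FPKM in both muscles, 8.63% did in LL 5 and 16.4% in PM 5, so little is read from this.

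**Figure D4:**
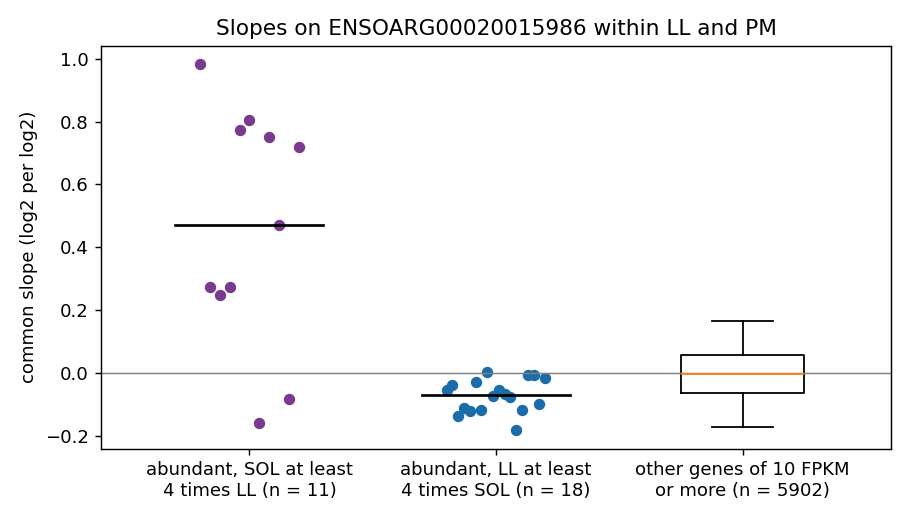
Common slope within LL and PM (log2 change of a gene per log2 unit of ENSOARG00020015986) for 11 abundant genes at least 4 times as high in SOL as in LL, 18 abundant genes at least 4 times as high in LL as in SOL, and 5902 other genes with at least 10 FPKM in LL and PM. Points are genes, bars are medians (0.47 and -0.07), and the box shows quartiles with whiskers at the 5th and 95th percentile (-0.17 and 0.17).

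Whether genes followed the transcript differently in LL and PM was tested as the difference between the slopes. In limma, 4 of 15433 genes (0.0259%) passed at an adjusted p under 0.05, and 379 (2.46%) at an unadjusted p under 0.05. All 4 were listed at 0 in each LL library and in each PM library but PM 5, where they stood at 2.12 to 3.52 FPKM. The calls therefore rested on PM 5: without that library 0 genes passed, and 0 passed without any single one of the other LL or PM libraries except PM 2, where 5 did. ENSOARG00020019802, at 3.52 FPKM in PM 5, was the most abundant of them, and was also listed at 0 in all soleus libraries.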

How the data were processed

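The table holds 20477 genes by 18 libraries. Per the labels' protocols, trimmed reads were mapped by HISAT2 (2.2.1), and StringTie (2.2.0) built transcripts. DESeq appears in the submitters' processing notes, its use unstated. The strand setting, build, annotation and counter are not given in the sources consulted. The values are FPKM as deposited by the authors. This was told from the values: of 13990 genes detected in at least 12 libraries, 13984 gave a whole gene length, and 100.0% of their positive values came within 0.05 of a whole read. Reads and library totals were recovered this way, a procedure tested on simulated data.

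The 15434 genes averaging 0.1 FPKM or more were put on the log2(FPKM + 0.1) scale and fitted in limma (3.58.1, under R 4.3.3), with a variance trend and Benjamini-Hochberg adjustment, two-sided, threshold 0.05. Fold changes on this scale understate changes of low genes. PM and LL were compared in a fit of all 18 libraries with 1 coefficient per muscle. Slopes were fitted on 12 libraries with 1 coefficient per muscle and the chosen transcript, centred within each muscle, as covariate. Single values were compared with exact permutation tests (scipy 1.17.1). Soleus values chose the transcript and were not tested. Genes named are the chosen row, the next row in soleus, and at most 2 genes each way with at least 10 FPKM in LL and in PM, ranked by the weaker within-muscle correlation, since 0 passed the adjusted p. The transcript, lists and tests were chosen with earlier results of these data known. Marker lists had no members, as 0 identifiers matched the reference table.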

Additional observations from a re-analysis of the deposited data

Results flagged for a closer look

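In each muscle, the highest and the lowest of the 6 libraries were set against the rest (Dixon's test) for 6 genes and for the share of the chosen transcript. Of 21 sets, 3 stood out. The usual chance rate of about 1 in 20 cannot be set against this. Among the genes, 4 were picked by their correlation with the transcript within LL and PM, and the share repeats the transcript. PM 5 was far below the other PM libraries for ENSOARG00020015986, at 2113 FPKM, and for its share of summed FPKM, at 0.413%, which restates the same value. PM 5 was far above the other PM libraries for ENSOARG00020009372, at 28.5 FPKM. As this gene was picked for its negative correlation with the transcript, its flag is not a separate result. The slope on the transcript differed between PM and LL for 4 genes (limma, adjusted p under 0.05), each of which had a value above 0 in PM 5 alone among the LL and PM libraries.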

How the results depend on the processing

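The difference in share between PM and LL passed the exact permutation test under every alternative run, and was 0.941 to 1.22 percentage points with 1 library left out. The log2 difference of the chosen transcript between PM and LL was 2.07 and missed the limma threshold (adjusted p = 0.052). It passed with a pseudocount of 1 (2.07, adjusted p = 0.046), with genes of at least 1 FPKM (2.07, adjusted p = 0.034), with the replicate block (2.07, adjusted p = 0.019) and, as an alternative added after seeing the data, without number 5 in LL and PM (1.95, adjusted p = 0.027). With 1 library left out it was 1.62 to 2.45, and 2 of these 12 fits passed. In a fit on the LL and PM libraries only, limma's adjusted p was 0.17.

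The number of genes following the transcript was 0, and became 2 with a pseudocount of 1, 8 with genes of at least 1 FPKM, 1 with median-ratio scaling and 1 without number 5, and 0 to 4 with 1 library left out. The number of genes with differing slopes was 4, became 0 with the replicate block and 0 without number 5, and was 0 to 5 with 1 library left out. The r between LL and PM over the numbers was 0.10 to 0.92 with 1 number left out and passed in none of these. Under the replicate block the slope of ENSOARG00020009372 turned to 0.03. With that block, 12 of the 18 abundant LL genes and 10 of the 11 abundant SOL genes had a slope above 0, against 46.1% of all genes tested. The cause of these changes was not tested.

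After removal of each muscle's mean, same-numbered LL and PM libraries correlated over genes at r of 0.090 to 0.18, and between other numbers at 0.0070 or less. As the lowest was under 0.1, the numbers were not taken as pairs of LL and PM libraries, although every library correlated best with its own number. For PM and SOL the same values were 0.13 to 0.23 and at most 0.017, and the design text takes the muscles from each carcass, so the numbers may well mark animals. If so, the main tests of PM against LL and the slope fits took libraries of the same animal as independent. With the replicate block, 0 genes followed the transcript, and the slope of ENSOARG00020001415 was 0.84 (limma adjusted p = 0.48). With the pairs, the share had a sign-flip difference of 1.02 percentage points, higher in PM for 6 of 6 numbers (exact permutation p = 0.031). This p is the smallest that 6 pairs allow, and is reached whenever all of them differ in the same direction. The effect of depth on these results was not tested.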
